A study of Mus musculus with 4 samples.

Results

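Myelin and mature oligodendrocyte genes were examined in RNA from Hmx3-lineage cells of *Dnmt1* wild-type (WT) and *Dnmt1* knockout (KO) mouse embryos. The group consisted of 31 genes, given as a list of symbols and found by matching the Ensembl identifiers of the deposited count lists to GENCODE M21, and all 31 were found among the 55573 genes counted in every library. The genes were chosen with the difference between KO and WT in these same libraries already known. Their changes are therefore given as a description of a fit made across all genes, and they are not independent evidence that myelin genes as a group respond to the deletion.

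Oligodendrocytes wrap axons in myelin, a stack of membrane that is rich in galactolipids and in a small set of proteins that compact it and attach it to the axon. In the ventral forebrain, oligodendrocyte precursors arise during embryonic life, and most myelin genes are switched on later, when the cells leave the cell cycle and the transcription factor MYRF drives their final differentiation. Several genes of the group are also used outside this lineage. *Nfasc* and *Cntn2* encode axonal adhesion proteins of neurons, *Enpp2* and *Ptgds* are abundant in choroid plexus or meninges, *Car2* is a red blood cell enzyme, and *Mbp* has a second start site whose golli transcripts occur in embryonic neurons. Counts per gene do not separate such transcripts.

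The data comprised 4 libraries, 2 per genotype, of tdTomato-positive cells sorted at embryonic day 16 from a dissection that the sample labels call basal telencephalon and the paper the preoptic area (POA). All embryos carried *Hmx3-Cre* and the tdTomato reporter, so that the label and the deletion both mark cells with a history of *Hmx3* expression, whatever they later became. KO embryos also carried the *Dnmt1 loxP2* allele, in which Cre removes exons 4 and 5 and leaves a null allele, whereas the paper calls the *Dnmt1* locus of the WT embryos wild-type and their sample titles also carry the word loxp. The labels give pools of 12 WT and 6 KO embryos and name the libraries biological replicates, whereas the paper describes technical duplicates of pooled samples, so that every SD and p-value below describes the spread between libraries, which may be technical.

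Library totals ranged from 8075102 to 9995968 counts, at which 3 counts equal 0.294 to 0.372 CPM, a unit that scales each count by the depth of its library, here after TMM normalization. The share of mitochondrial rRNA was 8.66% in WT 1 and 1.51% to 2.32% in the other libraries. The targeted gene *Dnmt1* had 416 ± 43.4 CPM in WT and 282 ± 1.59 CPM in KO (SD, n = 2), which is a log2 fold change of -0.56 with a standard error of 0.14 (adjusted p = 0.0511 by edgeR). *Dnmt1* was called lower by DESeq2 (adjusted p = 0.00843) and limma-voom (0.0358), with the offsets described below (-0.69, 0.000564) and without WT 1 or WT 2, but not with library size only (0.151), the upper quartile (0.0645) or at least 10 counts in every library (0.0739), nor without KO 1 (0.386) or KO 2 (0.521). Counts per gene also cover exons outside the deleted part. *Hmx3*, whose promoter drives Cre, had 84.3 ± 8.11 CPM in WT and 82.8 ± 15.5 CPM in KO (SD, n = 2), with overlapping libraries. The test ran over 16832 genes with enough counts, of which 7.33% were called higher and 0.57% lower in KO at an adjusted p under 0.05. With offsets that remove trends along length and GC, 10.6% were called higher and 6.52% lower, so that the share of lower calls depended on this step.

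DNMT1 maintains methylation at CpG dinucleotides, and the promoters of the group were therefore inspected for CpG content. RefSeq promoter windows (GRCm38.p6, 250 bases before to 50 bases after an annotated start) were at hand for 22 of the 31 genes, as 32 windows. No window was used for *Mbp*, *Fa2h*, *Enpp2*, *Car2*, *Myrf*, *Bcas1*, *Adamts4*, *Trf* and *Evi2a*. The windows of *Aspa*, *Mog*, *Mal*, *Cntn2* and *Ugt8a* are printed because they span the range from few to many CpG and from large to no called change, with each CpG in capitals.
*Aspa*, chr11:73324588-73324887, minus strand: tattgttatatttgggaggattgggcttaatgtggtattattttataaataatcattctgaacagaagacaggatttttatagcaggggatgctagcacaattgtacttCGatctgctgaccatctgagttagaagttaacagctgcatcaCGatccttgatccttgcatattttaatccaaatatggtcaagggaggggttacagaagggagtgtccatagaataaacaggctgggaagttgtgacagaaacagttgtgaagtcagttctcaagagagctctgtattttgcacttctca
*Mog*, chr17:37023349-37023648, minus strand: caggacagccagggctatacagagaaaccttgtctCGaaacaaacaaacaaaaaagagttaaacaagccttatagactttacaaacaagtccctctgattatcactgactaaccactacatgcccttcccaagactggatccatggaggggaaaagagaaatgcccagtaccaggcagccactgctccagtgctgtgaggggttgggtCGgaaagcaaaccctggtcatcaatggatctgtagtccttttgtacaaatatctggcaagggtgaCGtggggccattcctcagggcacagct
*Mal*, chr2:127656646-127656945, minus strand: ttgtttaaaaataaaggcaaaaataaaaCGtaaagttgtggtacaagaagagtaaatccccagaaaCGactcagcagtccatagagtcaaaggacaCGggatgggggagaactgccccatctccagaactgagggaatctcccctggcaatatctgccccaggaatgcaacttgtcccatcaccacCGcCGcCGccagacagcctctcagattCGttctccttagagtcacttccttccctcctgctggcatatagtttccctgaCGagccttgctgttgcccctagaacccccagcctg
*Cntn2*, chr1:132542891-132543190, minus strand: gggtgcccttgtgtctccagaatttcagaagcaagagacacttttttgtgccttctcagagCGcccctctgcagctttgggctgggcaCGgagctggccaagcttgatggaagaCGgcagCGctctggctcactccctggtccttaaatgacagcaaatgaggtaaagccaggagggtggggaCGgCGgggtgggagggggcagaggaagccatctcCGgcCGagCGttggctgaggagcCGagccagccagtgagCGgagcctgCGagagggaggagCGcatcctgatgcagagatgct
*Ugt8a*, chr3:125938603-125938902, minus strand: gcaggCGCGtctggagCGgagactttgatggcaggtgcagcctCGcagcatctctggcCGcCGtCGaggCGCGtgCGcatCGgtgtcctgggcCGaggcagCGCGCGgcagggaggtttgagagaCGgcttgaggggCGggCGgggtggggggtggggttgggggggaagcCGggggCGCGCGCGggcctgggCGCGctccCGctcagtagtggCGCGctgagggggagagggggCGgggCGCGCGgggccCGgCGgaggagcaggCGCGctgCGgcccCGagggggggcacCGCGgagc

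These windows hold 2 CpG for *Aspa*, 3 for *Mog*, 8 for *Mal*, 13 for *Cntn2* and 40 for *Ugt8a*. At most 5 CpG were present in 43.8% of the group's windows and in 43.6% of all 32841 windows of the table. Among the 14 genes with 1 window and a fitted change, the 7 with at most 5 CpG had a median change of 3.61 on the log2 scale, with *Aspa* and *Opalin* at their lower bounds, and the 7 with more had one of 1.44. The ranges of both sets overlapped widely, from 0.45 (*Mog*) to 5.83 (*Mobp*) and from -0.43 (*Cntn2*) to 7.54 (*Mal*), and the comparison was not tested.

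The sequence ACAAAG, a core bound by SOX factors, was searched on both strands and occurred in 34.4% of the group's windows and in 18.7% of all windows. Overlapping windows of the same gene were counted separately, such as chr7:30914814-30915113 and chr7:30914873-30915172 of *Mag* with 1 match each. TATAAA, searched likewise, occurred in 3.12% and 13.6%, in the group only at *Aspa*. A match is a description of letters and not of binding. The *Mobp* window had the most ACAAAG matches of the group, 6 in all, and is shown because the gene also had one of the largest changes. Its matches, all read as CTTTGT on the printed strand, are in capitals.
*Mobp*, chr9:120149492-120149791, plus strand: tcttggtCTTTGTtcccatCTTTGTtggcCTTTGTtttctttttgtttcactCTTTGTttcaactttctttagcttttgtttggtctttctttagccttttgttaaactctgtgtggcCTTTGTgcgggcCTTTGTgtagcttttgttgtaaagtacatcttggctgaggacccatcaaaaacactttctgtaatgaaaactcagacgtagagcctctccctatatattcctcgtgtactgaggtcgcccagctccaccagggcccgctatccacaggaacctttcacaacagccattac

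In KO, 29 of the 31 genes had both libraries above both WT libraries, against 28.3% of all tested genes and 23.2% of all genes with at least 1 count. Of the 30 genes tested, 19 were called higher in KO by edgeR, against the background of 7.33%, and 11 were not called. DESeq2 called 20 higher (7.4% of all genes) and limma-voom 19 (7.21%). As lower, 0 were called by edgeR (1 at an unadjusted p under 0.05), and 0 by DESeq2 (1.47% of all genes) and limma-voom (0.594%). Mature myelin genes such as *Mobp*, *Mag* and *Mal* went from near absence in WT to between 39.4 and 53.1 CPM in KO, whereas *Mbp* and *Cnp* were already present in WT and were called with smaller changes, and *Mog* and *Nfasc* were present in WT and were not called under any alternative. The median log2 fold change of the 30 tested genes was 1.43, against -0.03 over all genes tested. It was 1.44 over all 31 genes in a fit without a filter on low counts, and 1.43 when the genes at 0 in WT were set to their lower bound. In a bulk library, more cells of a type and more RNA per cell cannot be told apart, and this holds for every change below.

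**Figure D1:**
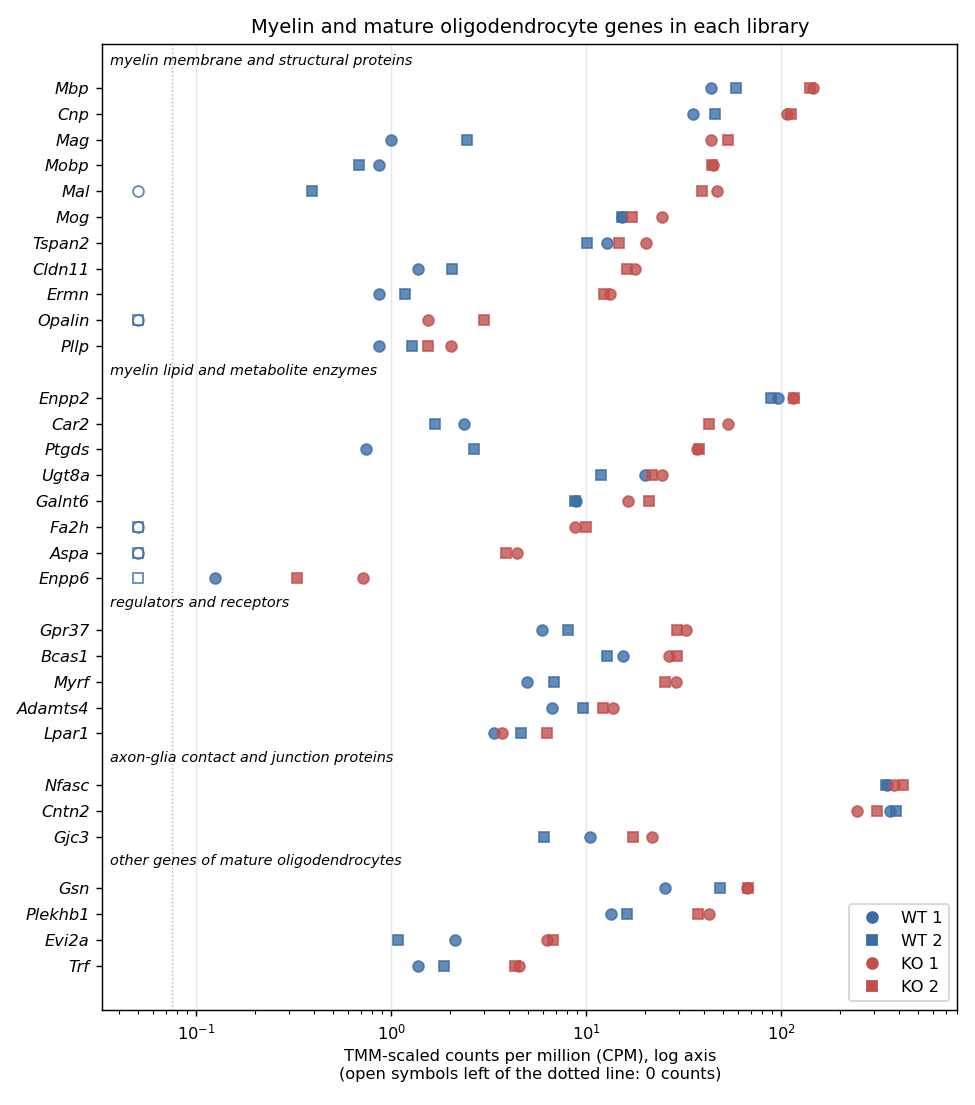
Level of each of the 31 genes in the 4 libraries, in TMM-scaled CPM on a log axis, grouped by role, with circles for replicate 1 and squares for replicate 2. Red KO symbols lie to the right of both blue WT symbols for 29 genes, overlap them for *Lpar1* and lie to the left for *Cntn2*, and open symbols at the left edge mark 0 counts.

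Among 11 genes for myelin membrane and structural proteins, 8 were called higher in KO. Their median log2 fold change was 2.76 with *Opalin*, which was at 0 in WT, at its lower bound, and 3.27 with its fitted value. It was 2.43 without KO 2, where 10 were tested, and with at least 10 counts in every library 5 were tested, 3 were called and the median was 1.47. *Mbp*, which encodes the basic protein that compacts the myelin membrane, lies on chromosome 18 from 82475146 to 82585637. It had 43.8 and 58.3 CPM in WT and 145 and 140 CPM in KO, which is a log2 fold change of 1.48 with a standard error of 0.18 (adjusted p = 0.00138 by edgeR). *Cnp*, the cyclic nucleotide phosphodiesterase of non-compact myelin, on chromosome 11 from 100574904 to 100591729, had 35.1 and 45.7 CPM in WT and 108 and 112 CPM in KO (1.44 on the log2 scale). Both genes were thus clearly present in WT and less than 3 times as high in KO.

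*Mobp*, a small protein of compact myelin, showed a different picture. The gene, on chromosome 9 from 120149707 to 120181484, had 7 counts in each WT library and 376 and 399 counts in KO. That is 0.777 ± 0.129 CPM in WT and 44.3 ± 0.536 CPM in KO (SD, n = 2), which is a log2 fold change of 5.83 with a standard error of 0.27 (adjusted p = 9.79e-06 by edgeR). *Mag*, the adhesion protein of the inner myelin membrane that faces the axon, on chromosome 7 from 30899176 to 30914873, received 8 and 25 counts in WT against 367 and 482 in KO (4.75 on the log2 scale, and 5.58 without WT 2). *Mal*, a tetraspan protein that sorts myelin membrane components, on chromosome 2 from 127633226 to 127656695, received 0 and 4 counts in WT against 394 and 358 in KO. Its ratio of 196 had a 95% exact counting interval from 76.4 to 722, since it rests on 4 WT counts in a single library. Its fitted log2 fold change of 7.54 was 6.73 without WT 1, and without WT 2 the remaining WT library was at 0. For all 3 genes the KO libraries lay far above the WT libraries and close to each other.

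*Cldn11*, the claudin of the tight junctions within myelin, had 11 and 21 counts in WT against 149 and 146 in KO, and *Ermn*, a cytoskeletal protein of mature oligodendrocytes, had 7 and 12 in WT and 111 and 112 in KO. Their changes on the log2 scale were 3.27 and 3.61. *Opalin*, a transmembrane protein found in myelinating oligodendrocytes, was at 0 in both WT libraries and had 13 and 27 counts in KO. With 3 counts taken for each WT library, *Opalin* was at least 6.78-fold higher in KO, with KO 2 at 1.92 times the level of KO 1.

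*Mog*, *Tspan2* and *Pllp* were not called. *Mog* encodes a glycoprotein of the outermost myelin surface and usually appears late in myelination. It lies on chromosome 17 from 37010743 to 37023398 and had 15.3 and 15.2 CPM in WT and 24.4 and 17.2 CPM in KO, which is a log2 fold change of 0.45 with a standard error of 0.24 (adjusted p = 0.314 by edgeR). In WT, *Mog* was therefore well above *Mag*, *Mobp* and *Mal* in CPM, and per length the same order held. *Tspan2*, a tetraspanin of the oligodendrocyte membrane, had 12.8 and 10.1 CPM in WT and 20.2 and 14.7 in KO (0.61 on the log2 scale), and it was called higher without WT 1 (edgeR adjusted p = 0.0198) and with the offsets for length and GC content (0.0419). *Pllp* (plasmolipin) had 7 and 13 counts in WT against 17 and 14 in KO, and 54.2% of its exonic bases are shared with *Gm45767* on the opposite strand.

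Among 8 genes for enzymes of myelin lipids and metabolites, 5 were called higher in KO, and *Enpp6*, with 1 and 0 counts in WT against 6 and 3 in KO, was too low to be tested. *Fa2h*, the fatty acid 2-hydroxylase of myelin galactolipids, on chromosome 8 from 111345135 to 111393824, was at 0 in both WT libraries and had 74 and 90 counts in KO. It was at least 28.1-fold higher in KO against 3 counts per WT library. *Aspa*, the aspartoacylase that frees acetate from N-acetylaspartate, likewise had 0 counts in WT and 37 and 35 in KO, at least 12.4-fold higher. *Ugt8a*, the enzyme that makes galactosylceramide, was by contrast present in both genotypes. It had 20.1 and 12.0 CPM in WT and 24.5 and 21.7 CPM in KO, which is a log2 fold change of 0.53 with a standard error of 0.27 (adjusted p = 0.289 by edgeR), and WT 1 was close to the KO libraries. *Ugt8a* was called higher without WT 1 (0.94, adjusted p = 0.000973) and with the offsets for length and GC content (0.87, 0.00754), whereas without WT 2 the change was 0.19 (0.637), so that its size depended on which WT library was used.

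*Car2*, a carbonic anhydrase of oligodendrocytes and other cells, on chromosome 3 from 14886273 to 14900770, received 19 and 17 counts in WT against 448 and 388 in KO (4.59 on the log2 scale). *Ptgds*, the prostaglandin D synthase, had 6 and 27 counts in WT against 310 and 345 in KO (4.39, and 3.81 without WT 1 and 5.61 without WT 2). Of 8 red blood cell genes, 5 were tested and 1 was called lower, against 0.57% of all genes. This was *Hbb-bs*, with 128 and 172 counts in WT against 60 and 57 in KO (-1.29 on the log2 scale). DESeq2 called 2 of the 5 lower (1.47% of all genes), and 3 were with the offsets for length and GC content (6.52%). Over the 8 genes, 3 had both KO libraries below both WT libraries, against 25.2% of all tested genes, and 1, *Alas2*, had both above, against 28.3% (57 and 92 counts in WT against 76 and 88 in KO, 0.21 on the log2 scale, not called). The part of red blood cells in the change of *Car2* was not tested. Of 9 genes of meningeal fibroblasts, another source of *Ptgds*, 4 were tested and 1 (*Foxc1*) was called higher, and their summed level was 33.3 and 36.7 CPM in WT and 47.3 and 40.5 CPM in KO. The part of these cells in the change of *Ptgds* was not tested. *Enpp2*, the lysophospholipase autotaxin, had 96.2 and 88.9 CPM in WT and 115 and 116 CPM in KO and was not called (0.32 on the log2 scale, edgeR adjusted p = 0.228), but it was with the offsets (0.37, adjusted p = 0.0354). *Ttr*, which marks choroid plexus, another site of *Enpp2* expression, fell from 329 and 564 counts (WT) to 8 and 10 (KO). It was the 1 gene called among 4 tested of that list, against 0.57% of all genes called lower. With the offsets 2 of the 4 were called lower, against 6.52%. The part of choroid plexus in the level of *Enpp2* was not tested. *Galnt6*, a glycosyltransferase, had 8.81 and 8.72 CPM in WT and 16.4 and 21.04 CPM in KO. Its call (log2 fold change 1.10, edgeR adjusted p = 0.0345) was lost without KO 2, where the adjusted p was 0.344.

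Of 5 regulators and receptors, 3 were called higher. *Myrf*, which encodes the membrane-bound transcription factor that activates many myelin genes, lies on chromosome 19 from 10208272 to 10240748. It had 4.97 and 6.86 CPM in WT and 28.9 and 25.4 CPM in KO, which is a log2 fold change of 2.19 with a standard error of 0.25 (adjusted p = 0.00121 by edgeR). *Gpr37*, a G protein-coupled receptor of maturing oligodendrocytes, had 5.96 and 8.03 CPM in WT and 32.5 and 29.1 CPM in KO (2.13 on the log2 scale). The factor and the receptor were thus present in WT and about equally raised in KO, between the small change of *Mbp* and the large one of *Mobp*.

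*Bcas1*, a marker of newly formed oligodendrocytes, had 15.4 and 12.7 CPM in WT and 26.5 and 29.1 CPM in KO (0.99 on the log2 scale, edgeR adjusted p = 0.024). Its adjusted p was 0.0561 without KO 1 and 0.182 without KO 2. *Adamts4*, an extracellular protease, was not called (0.65 on the log2 scale, edgeR adjusted p = 0.226), except without WT 2 (adjusted p = 0.0191). *Lpar1*, a lysophosphatidic acid receptor, was the one gene of the group whose libraries overlapped between genotypes, with 3.35 and 4.61 CPM in WT and 3.69 and 6.28 CPM in KO. Its log2 fold change of 0.32 turned to -0.11 without KO 2.

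The axon-glia contact genes *Nfasc* and *Cntn2*, which are neighbours on chromosome 1 (132564690 to 132741797 and 132509427 to 132543256), were the most abundant genes of the group in CPM in all 4 libraries. They made up 68.3% and 66.5% of its summed CPM in WT and 39.0% and 43.6% in KO. *Nfasc* (neurofascin) had 347 and 342 CPM in WT and 378 and 419 in KO and was not called (0.21 on the log2 scale, edgeR adjusted p = 0.399). *Cntn2* (contactin 2) had 362 and 387 CPM in WT and 245 and 310 in KO, the single gene of the group with both KO libraries below both WT libraries. Its log2 fold change of -0.43 (standard error 0.16) had an edgeR adjusted p of 0.15. It was called lower without WT 1 (-0.49, adjusted p = 0.000496), without WT 2 (-0.40, 0.0135) and with the offsets for length and GC content (-0.60, 0.00317). *Gjc3*, a connexin of glial gap junctions, rose from 10.4 and 6.08 CPM in WT to 21.8 and 17.3 CPM in KO (1.25 on the log2 scale, edgeR adjusted p = 0.0484), a call that was lost without KO 1 (adjusted p = 0.138).

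Of the remaining genes, *Plekhb1*, a membrane adaptor, was called higher with 13.4 and 16.3 CPM in WT and 42.4 and 37.6 CPM in KO (1.43 on the log2 scale), as was *Evi2a* with 17 and 11 counts in WT against 53 and 61 in KO (2.05). The call of *Evi2a* was lost without KO 2 (adjusted p = 0.097), and 19.2% of its exonic bases are also annotated to *Evi2*. *Trf* (transferrin, the iron carrier that oligodendrocytes make) had 11 and 19 counts in WT against 38 and 39 in KO, which is a log2 fold change of 1.43 that was not called (edgeR adjusted p = 0.105, and 0.0256 without WT 2). The overlapping gene *Gm20425* covers 63.5% of the exonic bases of *Trf*, so that its reads are uncertain. *Gsn* (gelsolin, an actin-severing protein) had 25.5 and 48.6 CPM in WT and 66.9 and 67.5 CPM in KO. Its log2 fold change of 0.85 was not called by edgeR (adjusted p = 0.107) and was 1.39 without WT 2 and 0.46 without WT 1, so that its size depended on which WT library was used. DESeq2 called *Gsn* higher (adjusted p = 0.0351), and it passed the threshold in 8 of 14 alternatives.

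**Figure D2:**
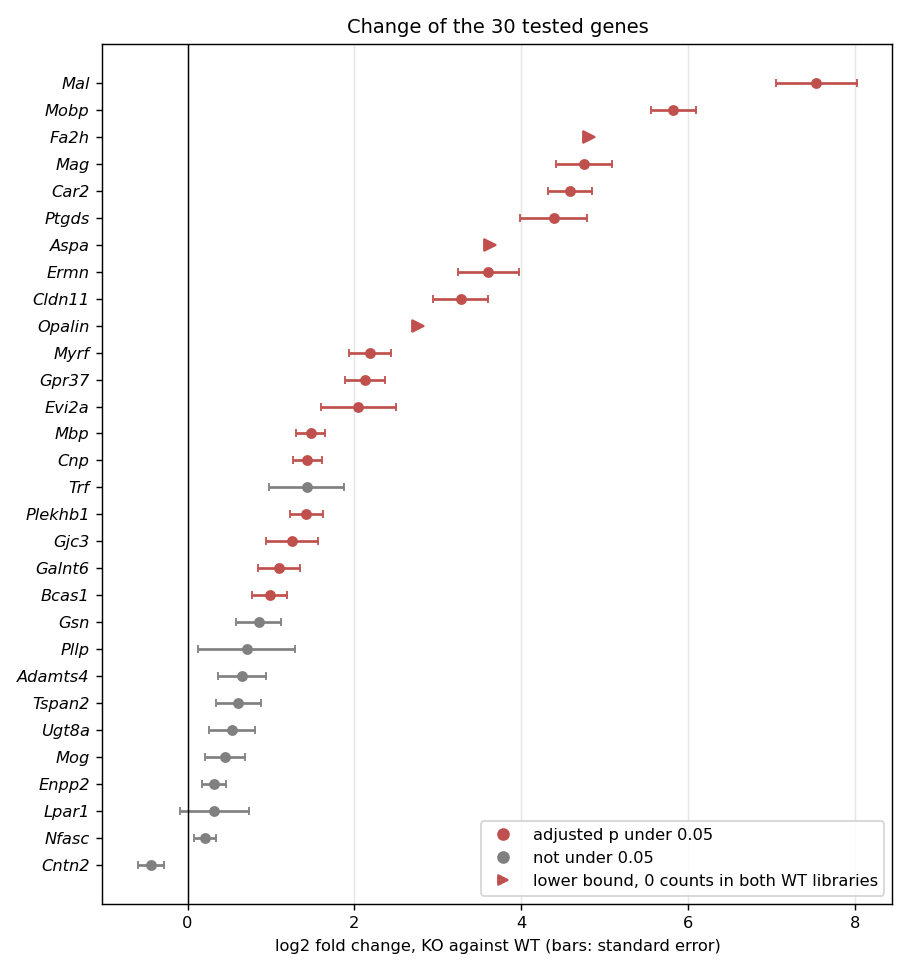
Log2 fold change of the 30 tested genes in KO against WT from the edgeR fit across all genes, with standard errors, red where the adjusted p was under 0.05. Values run from -0.43 for *Cntn2* to 7.54 for *Mal*, and the 3 arrowheads are lower bounds for *Fa2h*, *Aspa* and *Opalin*, which had 0 counts in both WT libraries.

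Levels of different genes were compared per length, as CPM per kilobase of all annotated exons. In KO, *Cnp* (30.1 ± 0.795), *Cntn2* (29.8 ± 4.93) and *Nfasc* (28.2 ± 2.08, SD, n = 2) were highest, and their libraries overlapped, so that they could not be ranked among themselves. *Ptgds* followed with 22.7 ± 0.489, *Gsn* with 21.3 ± 0.13 and *Enpp2* with 20.0 ± 0.0952, and *Car2* (19.8 ± 3.07) overlapped both *Gsn* and *Enpp2*. *Mbp* had 16.8 ± 0.44 and *Mal* 15.5 ± 1.89 with overlapping libraries. With the longest transcript as the length instead of all exons the order changed, with *Nfasc* (40.9), *Cntn2* (37.8), *Cnp* (37.7) and *Enpp2* (37.3) ahead of *Mbp* (29.7) and *Ptgds* (28.2), and *Mal* at 15.5. Of the 30 neighbouring pairs in the order over all exons, 11 did not overlap. In WT, the order was led by *Cntn2* (40.2 ± 1.87), *Nfasc* (24.4 ± 0.229), *Enpp2* (16.01 ± 0.897), *Gsn* (11.7 ± 5.19) and *Cnp* (11.1 ± 2.05), in the order over all exons, of which *Gsn* overlapped both neighbours. A level over 1 CPM per kilobase in both libraries was reached by 14 genes in WT and 26 in KO. Of the 10 genes with the highest level in WT 4 were called higher in KO, and of the other 21 genes 15 were. A gene with a low WT level has room for a large fold, and the order is no test.

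**Figure D3:**
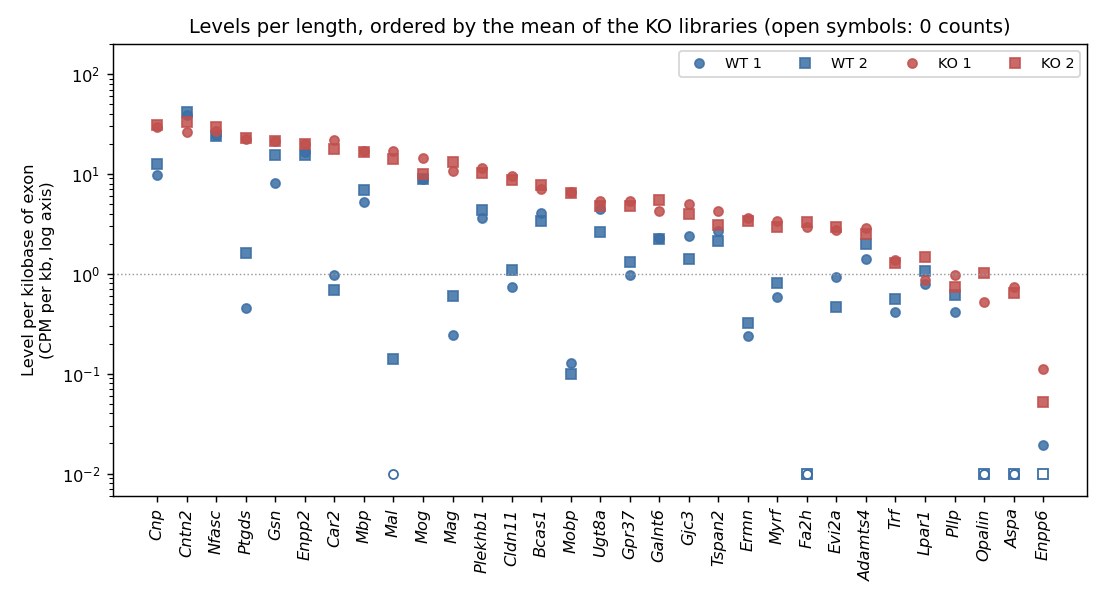
CPM per kilobase of exon for each gene on a log axis, ordered by the KO mean, with WT in blue, KO in red, a dotted line at 1 and open symbols for 0 counts. The red symbols fall steadily from *Cnp* (30.1) to *Enpp6* (0.0814), whereas the blue ones lie above them for *Cntn2*, close below them for *Nfasc* and far below them for *Mal*, *Mobp* and *Mag*.

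The WT libraries differed more from each other than the KO libraries did over all genes, with a chi-square per degree of freedom of 39.8 against 3.54. Within the group, WT 1 and WT 2 lay far apart for *Ptgds* (0.745 and 2.65 CPM), *Mag* (0.993 and 2.45 CPM) and *Gsn* with WT 2 higher, and for *Ugt8a* and *Gjc3* with WT 1 higher. In KO, 13 of the 31 genes were higher in KO 2 than in KO 1, with a median log2 difference of -0.06 between them, and in WT, 12 genes were higher in WT 1, with a median log2 difference of -0.19 between WT 1 and WT 2. Without *Nfasc* and *Cntn2*, the summed level was 329 and 367 CPM in WT and 974 and 941 CPM in KO.

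Other genes of the lineage were read from lists of the same kind. Of 30 further genes of myelin or mature oligodendrocytes, 27 were tested and 13 were called higher and 0 lower (1 at an unadjusted p under 0.05, and 0 by DESeq2 and limma-voom), with a median log2 fold change of 1.09, against 7.33% called higher and a median of -0.03 over all genes. With at least 10 counts in every library, 7 of 19 were called higher with a median of 0.71, against 5.81% of all genes. With the offsets for length and GC content, 14 of 27 were called higher, against 10.6% of all genes, and 1 lower, against 6.52%. The list's median was 0.98 to 1.17 with 1 library left out. *Cryab*, a small heat shock protein of oligodendrocytes and astrocytes, had 0 and 1 counts in WT against 150 and 189 in KO. *Tmem88b* had 4 and 1 counts in WT against 133 and 130 in KO, and *Tmem125* had 0 in WT and 17 and 11 in KO, at least 4.85-fold higher.

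Most genes of oligodendrocyte precursors were present in both genotypes. Of 10 such genes, all tested, 1 was called higher, *Neu4*, a sialidase, with 1 and 0 counts in WT against 41 and 51 in KO, and the median log2 fold change was 0.33. This count was close to the background of 7.33%, and it ranged from 0 under a filter of 10 counts per library (background 5.81%) to 5 without WT 2 (11.2%). Without WT 2, 1 gene was also called lower, against 12% of all genes. Both KO libraries lay above both WT libraries for 8 of the 10 genes, against 28.3% of all tested genes. The summed level of the list was 2766 and 2439 CPM in WT and 3139 and 3114 CPM in KO. *Pdgfra*, the growth factor receptor of precursors, had 5907 and 7341 counts in WT against 7162 and 7522 in KO, that is a log2 fold change of 0.21 (adjusted p = 0.394 by edgeR). *Gpr17*, a receptor of cells that have begun to differentiate, had 1652 and 2237 counts in WT against 2162 and 2651 in KO (0.37, edgeR adjusted p = 0.167). These genes, *Sox10* below and *Cspg4* were named after their values were seen. The median change of precursor genes and that of the mature genes stand side by side here, and their difference was not tested.

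Of 14 transcription factors of the lineage, 4 were called higher and 1 lower, against 7.33% and 0.57% of all genes. With all 4 libraries, 4 to 6 were called higher over the alternatives, where 5.81% to 10.8% of all genes were. Lower calls were 0 to 2, where 0.364% to 7.15% of all genes were called lower. The 2 came with the offsets for length and GC content, where 6.52% to 7.15% were, with or without the replicate number as a block. The list's median log2 fold change was 0.39 to 0.63 with 1 library left out. *Olig2*, which specifies the lineage, changed by 0.63 on the log2 scale, *Sox8* by 1.12, *Tcf7l2*, a factor of differentiating cells, by 1.29 and *Nkx6-2*, a factor of myelinating cells, by 4.50 from 1 and 3 counts (WT) to 49 and 42 (KO). *St18* was lower (-0.63). *Sox10*, which activates *Myrf* and many myelin genes, had 496 and 789 counts in WT against 844 and 1100 in KO, which is a log2 fold change of 0.67 that was not called (edgeR adjusted p = 0.0587), although DESeq2 called it (adjusted p = 0.0209). Without KO 2, the calls of *Olig2* (adjusted p = 0.286), *Tcf7l2* (0.0546) and *St18* (0.413) were lost, and those of *Olig2* (0.28) and *St18* (0.353) also without KO 1.

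Markers of other cells moved with genotype in the same libraries. All 12 astrocyte markers were called higher in KO, with a median log2 fold change of 4.29 and a summed level of 251 and 246 CPM in WT and 4160 and 3968 CPM in KO. Among them, *Gfap* had 0 counts in WT and 149 and 198 in KO, *Aqp4* 0 and 4 against 591 and 567, and *Gjb6* 2 and 1 against 974 and 1022. Of 9 mural cell markers, 8 were called higher, with *Acta2* at 0 in WT and 652 and 800 counts in KO, *Des* at 1 in each WT library and 60 and 50 in KO, and *Vtn* at 40 and 82 in WT and 486 and 605 in KO. The one not called, *Cspg4* (2030 and 2688 counts in WT against 2692 and 3440 in KO), is also a precursor marker and stands in both lists. The part of these cells in the changes of the myelin genes was not tested, and the cell makeup of the pools cannot be told apart from genotype.

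Schwann cells, the myelinating cells of peripheral nerves, share many of the group's genes. *Pmp2*, a myelin protein of these cells, was at 0 in all 4 libraries. Of 8 Schwann cell genes, 3 were tested and *Cdh19*, an adhesion molecule of glia, was called higher, from 22 and 7 counts (WT) to 304 and 226 (KO). Of 8 microglial and 4 fibroblast genes tested, 1 each was called higher (*Csf1r* by 1.03 and *Foxc1* by 1.99 on the log2 scale), against the background of 7.33%. The call of *Csf1r* was lost with limma-voom (adjusted p = 0.0534) and without KO 2 (0.484), and that of *Foxc1* without KO 1 (0.136) and without KO 2 (0.178). Microglial calls ranged from 0 with limma-voom (7.21% of all genes) to 5 without WT 2 (11.2%). Of 7 endothelial genes tested, 0 were called by edgeR, DESeq2 or limma-voom (4 at an unadjusted p under 0.05 by edgeR, 2 in each direction). With library size only, 1 was called higher, against 10% of all genes, and with the offsets for length and GC content 1, against 10.6%. Without a filter 1 of 8 was, against 5.97%. Their median log2 fold change of 0.40 was 0.08 to 0.97 with 1 library left out. The summed level of 7 choroid plexus genes was 54.6 and 70.7 CPM in WT and 8.56 and 9.36 CPM in KO, and that of 8 red blood cell genes was 31.03 and 44.7 CPM in WT and 18.9 and 19.2 CPM in KO, with *Hbb-y* at 0 in all libraries.

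Neuronal genes stayed abundant. The 15 genes carried by neurons in general had a summed level of 8481 and 8015 CPM in WT and 5909 and 6036 CPM in KO, with a median log2 fold change of -0.47, and 3 were called lower. These were *Stmn2* (-0.57), *Syt1* (-0.73) and *Elavl4* (-0.81), of which only *Elavl4* was still called without KO 1 and none without KO 2, where 1 other gene of the list was called. The count was far larger under other settings, with 11 of the 15 lower with the offsets for length and GC content, 10 without WT 1 and 12 without WT 2. The share of all genes called lower rose with it, from 0.57% to 6.52% with the offsets, 7.15% without WT 1 and 12% without WT 2. The count was 2 to 8 with the other tools, scalings and filters. Of 11 genes of GABAergic and POA neurons, 0 were called by edgeR, DESeq2 or limma-voom (3 lower at an unadjusted p under 0.05 by edgeR), while 2 were called lower with the offsets, 1 without WT 1 and 2 without WT 2. Their summed level was 1635 and 1518 CPM in WT and 1281 and 1392 CPM in KO.

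**Figure D4:**
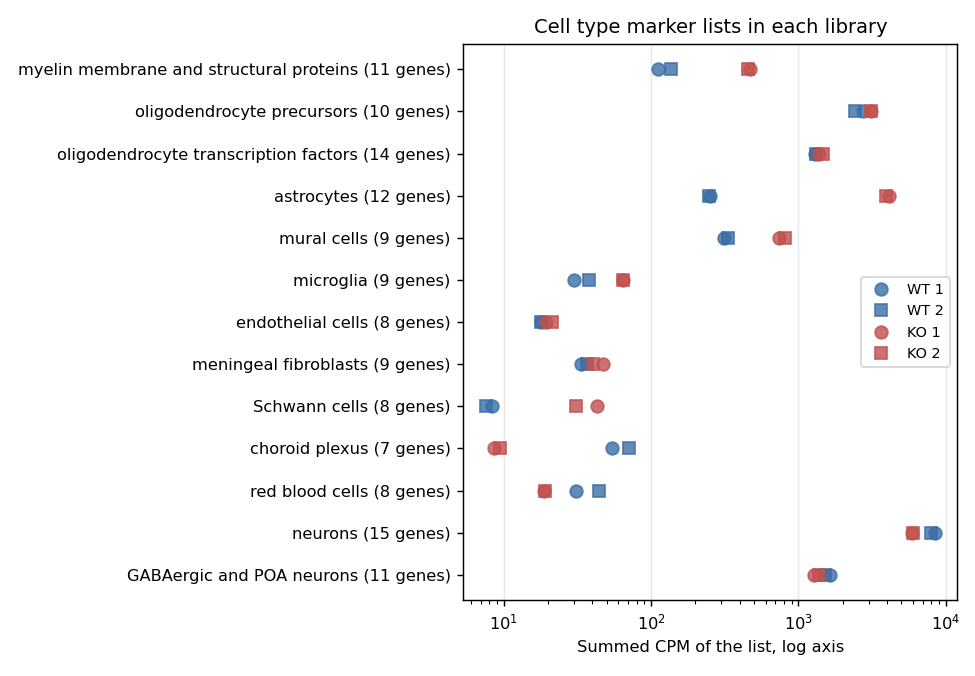
Summed CPM of 13 gene lists in each library on a log axis, with WT in blue and KO in red. Astrocyte markers moved from 251 and 246 to 4160 and 3968 CPM and myelin membrane genes from 112 and 137 to 467 and 452 CPM, and precursor genes from 2766 and 2439 to 3139 and 3114 CPM.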

How the data were processed

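RNA was sequenced from sorted tdTomato-positive cells at E16 in 2 WT and 2 KO libraries. For each library the authors deposited a list of raw counts by Ensembl identifier. The submitters' processing notes name CASAVA 1.8.2, STAR 2.5.2a, featureCounts 1.5.0-p1 and the builds mm10 and GRCm38. The annotation release, the strand setting and the treatment of reads shared by overlapping genes are not given in the sources used here. Genotype and replicate number were taken from the sample titles.

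Of 55573 identifiers, 55394 matched GENCODE M21. Counts were filtered with edgeR's expression filter, scaled by TMM and tested with edgeR's quasi-likelihood test (edgeR 4.0.16, R 4.3.3) on genotype alone. The Benjamini-Hochberg adjustment ran over all tested genes, and an adjusted p under 0.05 was called. Standard errors were derived from the test statistic. Where both WT libraries had 0 counts, a lower bound was taken from 3 counts per WT library. Ratios on few counts carry exact binomial intervals, which like these bounds cover counting error only. Alternatives were DESeq2 1.42.0, limma-voom (limma 3.58.1), other scalings and filters, smooth offsets for gene length and GC content (mgcv), the replicate number as a block, and each library left out. The procedures were tested on simulated counts.

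The 31 genes and all lists were chosen with earlier results of these data known. Named genes are these 31, *Dnmt1*, *Hmx3*, defining markers at 0 and, in each other list, all called genes where they were 5 or fewer and otherwise the 3 largest changes in each direction. *Pdgfra*, *Cspg4*, *Gpr17*, *Sox10* and *Alas2* were added after their values were seen. Some genes of the lists are not reported here by name.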

Additional observations from a re-analysis of the deposited data

How the results depend on the processing

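Leaving out 1 library leaves a genotype with 1 library, which is then assumed to vary like the other genotype. The 19 genes of the group called higher became 11 when at least 10 counts were required in every library, a filter that left 21 genes of the group for the test (5.81% of all genes tested called higher), and 15 to 22 with 1 library left out (5.08% without KO 2, 5.35% without KO 1, 11.2% without WT 2 and 14.2% without WT 1). The count of 0 called lower became 1 (*Cntn2*) with the replicate block, where 3.68% of all genes were called lower. It was also 1 with the offsets for length and GC content (6.52%) and with both together (7.15%). The log2 fold change of *Cntn2* was -0.61 to -0.26 with 1 library left out. The group's median log2 fold change was 1.13 under the filter of 10 counts and 1.28 to 1.62 with 1 library left out, lowest without WT 1 and highest without WT 2. Under the other alternatives these results stayed within 1.5 times the count or within the spread between replicates. Over all genes, the 96 lower calls became 247 with DESeq2, 573 without a filter, 52 under the filter of 10 counts, 619 with the replicate block, 1096 with the offsets, 1203 with the block and the offsets together, and 51 to 2180 with 1 library left out. The 1233 higher calls became 900 to 2578 with 1 library left out.

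Signs turned for *Lpar1* (-0.11 to 0.66 with 1 library left out), for *Hmx3* (0.077 with library size only, 0.012 with the upper quartile, 0.0091 with at least 10 counts in every library, -0.23 to 0.16 with 1 library left out) and for the summed level of *Nfasc*, *Cntn2* and *Gjc3* (log2 ratio -0.06, and 0.043 with library size only). The cause was not tested. Among the single genes of the group, 381 of the alternative values kept their direction and call, 23 gained a call, 5 lost it and 1 turned.

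The replicate numbers pair the libraries by label only. Deviations of same-numbered libraries correlated with 0.137 across genes. With the replicate block, 20 genes of the group were called higher and 1 lower, and over all genes 1625 higher (9.65%) and 619 lower (3.68%). *Dnmt1* was called lower with the block (adjusted p = 0.0149). The 3 neuronal genes called lower became 6 with the block and 13 with the block and the offsets together. With both, the 0 GABAergic and POA genes called lower became 3, and 7.15% of all genes were called lower. Of 7 endothelial genes tested, 1 was called higher with the block (9.65% of all genes) and with the block and the offsets together (10.8%). Of 10 highest levels per length in KO, 9 stayed among the 10 highest with the longest transcript in place of all exons. Genes with a few counts per library, such as *Enpp6* and *Opalin*, are limited by depth.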
